A study of Mus musculus with 2 samples.

Results

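The Hox, Meis and Pbx genes encode homeodomain transcription factors, and 46 of them were read in erythroid cells made to mature in culture. They were taken as every protein-coding gene whose symbol is Hoxa, Hoxb, Hoxc, Hoxd, Meis or Pbx followed by a number alone. These were 39 Hox genes, 3 Meis genes and 4 Pbx genes, out of 21474 protein-coding genes measured. The cells were G1E-ER4, an immortalized clonal mouse line of erythroid precursors that lack their own Gata1 and carry GATA-1 fused to the hormone-binding domain of an oestrogen receptor. Estradiol switches the fusion protein on and the cells then mature towards red cells. Both libraries came from cells kept for 24 h in 10 nM 17beta-estradiol, and the labels number them biological replicates 1 and 2. No untreated or parental cells were analysed here, so the levels describe induced cells only and no change with GATA-1 was measured.

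Hox genes lie in 4 clusters, A to D, and genes at the same place in different clusters form paralogue groups, numbered from the 3' end of the cluster. In the embryo their order along the chromosome follows the order in which they act along the body axis. In blood formation, Hox genes of the A and B clusters are known from stem and progenitor cells and are turned down as these mature. MEIS and PBX proteins belong to the TALE class of homeodomain proteins, named for an insert of 3 amino acids in the homeodomain. They bind DNA together with HOX proteins, and with other partners, and PBX and MEIS proteins also pair with each other.

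The short stretch of the homeobox that encodes the DNA-recognition helix is printed for 5 of the 8 members that were expressed, because the letters show how the families differ where they contact DNA and whether short reads can tell them apart. Each line runs 5' to 3' along the coding strand over 36 bases, the length of a read in these libraries. The capitals mark the codon for position 50 of the homeodomain, a residue known to touch the bases of the target site. The letters came from the GENCODE M21 transcripts on GRCm38.

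Pbx2: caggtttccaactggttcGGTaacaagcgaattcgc
Pbx3: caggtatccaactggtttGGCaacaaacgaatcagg
Meis1: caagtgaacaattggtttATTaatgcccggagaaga
Hoxc9: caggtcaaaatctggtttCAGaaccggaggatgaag
Hoxb13: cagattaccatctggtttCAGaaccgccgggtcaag

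The capitals separate the families. All 39 Hox genes had a glutamine codon there, CAG in 35 of them and CAA in 4. The 4 Pbx genes had a glycine codon and the 3 Meis genes an isoleucine codon. Among the 5 expressed Hox genes the stretch differed by 3 to 10 bases in the 10 possible pairs, with a median of 6.5. Against the expressed Meis and Pbx genes it differed by 13 to 18 bases. With undetected members included the differences were smaller. The stretch was the same, with 0 differing bases, in Hoxa6 and Hoxa7. It differed by 1 base between Hoxc5 and Hoxd4 and between Hoxc6 and Hoxa3. The stretch lies in exon 2 of 2 of Hoxb13 at chr11:96196149-96196184 on the plus strand. In Hoxc9 it lies in exon 3 of 3 at chr15:102984059-102984094, also on the plus strand. In Meis1 and both Pbx genes an intron interrupts it.

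Whole transcripts were searched in the same way. Of all runs of 36 bases in the annotated transcripts, 100% occurred in no other gene for Hoxb13, Hoxc4, Hoxc6 and Pbx3. The share was 98.1% for Hoxc9, 95.6% for Hoxc5, 94.7% for Pbx2 and 82.6% for Meis1. Among members that were not detected it was as low as 39.1% for Hoxd3, 47.6% for Hoxb3 and 51.6% for Hoxd4. Hoxd3 and Hoxd4 share most of their shared runs with Gm28230, and Hoxb3 shares most with Hoxb3os. Gm28230 had 0 expected counts in both libraries and Hoxb3os had 0 and 1, so few counts could have gone to these genes instead. Hoxc5 shares 166 exonic bases with Hoxc10, which itself had 1.03 and 0 expected counts. Pbx2 shares 227 exonic bases, or 6.24% of its exonic length, with Gpsm3 on the same strand. Gpsm3 stood at 31.3 and 35.75 TPM (a transcript level corrected for length and depth), so the division of reads between Pbx2 and Gpsm3 is uncertain there.

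Depth came to 20412826 expected counts (replicate 1) and 18564086 (replicate 2). An expected count is an estimate that divides a read among the transcripts it matches. The erythroid label held against its markers: all 8 erythroid markers measured were expressed, among them the globin gene Hbb-bs at 61175 and 69726 TPM. Of the other marker lists, 4 of 7 megakaryocyte genes were expressed, 2 of 7 stem and progenitor genes, 1 of 7 granulocyte and macrophage genes, 0 of 6 lymphoid genes and 0 of 7 fibroblast and endothelial genes. Their summed levels were 56.1 and 62.0 TPM for megakaryocyte genes, 18.1 and 19.1 TPM for stem and progenitor genes and 3.28 and 4.06 TPM for granulocyte and macrophage genes. The stem and progenitor genes that were expressed were Kit, at 11.9 and 12.6 TPM, and Gata2, at 6.21 and 6.43 TPM, and the macrophage gene was Cd68, at 2.76 and 3.51 TPM. Cd34, Procr, Elane and Cd3e had 0 TPM in both libraries. The part of these other cell types in the levels below was not tested, and in bulk RNA fewer cells that express a gene cannot be told apart from less RNA per cell.

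Most members had few reads or none. The limit for detection was 1 TPM, to be reached in each library, and 8 of the 46 members met it: Hoxc4, Hoxc5, Hoxc6, Hoxc9, Hoxb13, Meis1, Pbx2 and Pbx3. Among all protein-coding genes, 8853 of 21474 or 41.2% met it. Another 28 members had 0 expected counts in both libraries, where 8572 protein-coding genes or 39.9% did. The remaining 10 members had between 1 and 9 expected counts in at least 1 library and never passed 0.30 TPM. The median of the members' mean levels was 0 TPM, beside 0.08 TPM over all protein-coding genes. With 1 group of 2 libraries no test between conditions was possible, and errors are SDs over those 2 libraries.

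**Figure D1:**
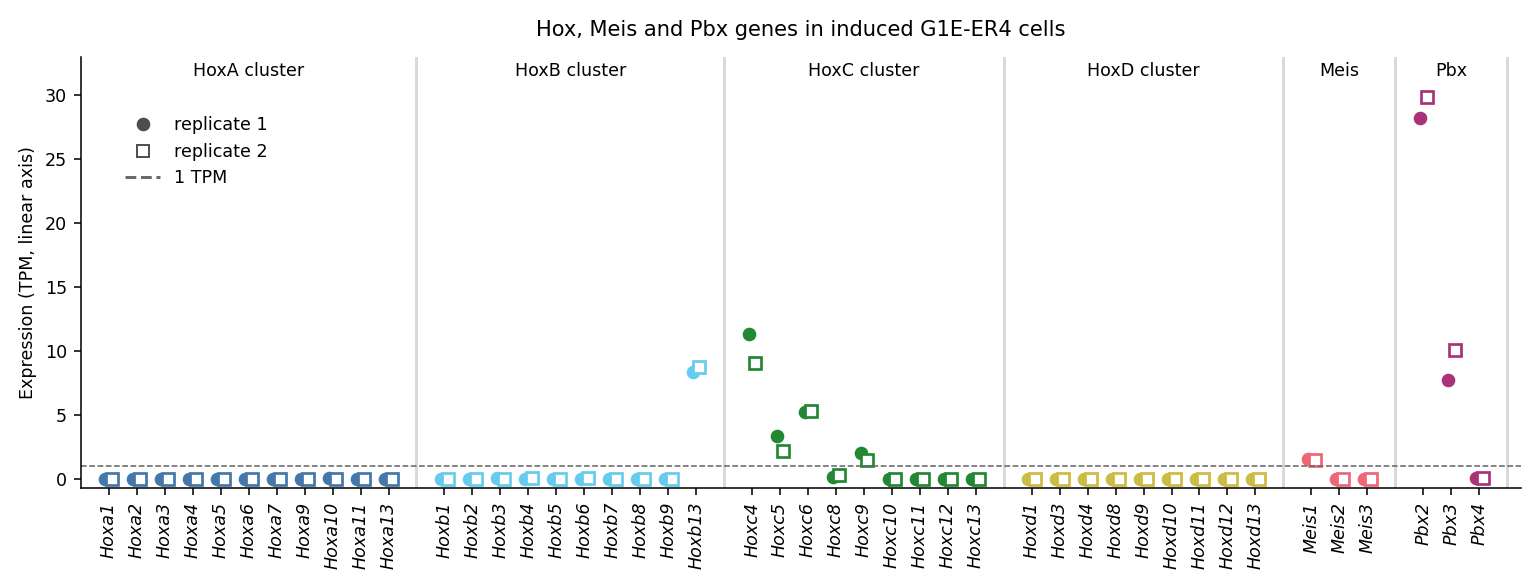
TPM (linear axis) of 45 of the 46 members in replicate 1 (filled circles) and replicate 2 (open squares), grouped by Hox cluster and family, with a dashed line at 1 TPM. Pbx2 stands at 28.2 and 29.9 TPM, Hoxc4, Pbx3 and Hoxb13 lie between 7.75 and 11.4 TPM, and the HoxA and HoxD genes lie at or next to 0.

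The Pbx gene Pbx2 came first in level. Pbx2, a broadly expressed PBX gene whose loss alone leaves mice without an obvious defect, had 28.2 TPM in replicate 1 and 29.9 TPM in replicate 2, or 29.1 ± 1.16 TPM (SD, n = 2), from 1005 and 907 expected counts. It was the highest of the 46 members, and 16.7% of protein-coding genes lay at or above it. Pbx3, known in human leukaemia as a partner of HOXA9, had 7.75 and 10.1 TPM, or 8.91 ± 1.64 TPM (SD, n = 2), from 308 and 295 expected counts. Pbx2 exceeded Pbx3 by 1.72 ± 0.21 on the log2 scale (SD, n = 2) and in both libraries.

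Pbx4 had 1 expected count in each library, at 0.04 and 0.10 TPM. Pbx2 supplied 78.4% and 74.6% of the summed Pbx TPM, Pbx3 21.5% and 25.2%, and Pbx4 0.111% and 0.25%.

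Meis1, a gene of stem cells and megakaryocytes and a partner of Hoxa9 in mouse leukaemia, had 1.55 and 1.49 TPM, or 1.52 ± 0.0424 TPM (SD, n = 2), from 63 and 52 expected counts. It was the lowest of the detected members, and 40.3% of protein-coding genes lay at or above it. Meis2 and Meis3 had 0 expected counts in both libraries. Meis1 thus held all of the summed Meis TPM, and Pbx2 stood 4.26 ± 0.10 above it on the log2 scale (SD, n = 2).

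The Hox genes together reached 30.7 and 27.4 TPM, beside 36.02 and 40.04 TPM for the Pbx genes. Of the Hox total, the HoxC cluster held 72.1% and 67.2% and the HoxB cluster 27.6% and 32.8%. HoxA held 0.293% and 0%, and HoxD 0% and 0.073%. Only 2 clusters therefore contributed more than single reads.

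In the HoxC cluster 4 of 9 genes were detected, a share near the 41.2% of all protein-coding genes. Hoxc4 was the highest Hox gene with 11.4 and 9.06 TPM, or 10.2 ± 1.62 TPM (SD, n = 2), from 357 and 260 expected counts. Hoxc6, a thoracic patterning gene, had 5.24 and 5.31 TPM, or 5.28 ± 0.0495 TPM (SD, n = 2), from 95 and 99 expected counts. Hoxc5, which lies between these genes, had 3.37 and 2.19 TPM, or 2.78 ± 0.834 TPM (SD, n = 2), from 114 and 92 expected counts. Replicate 1 was the higher library for Hoxc4 and Hoxc5, and the libraries were close for Hoxc6.

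Hoxc9, which patterns thoracic segments and motor neurons in the mouse, had 2.00 and 1.52 TPM, or 1.76 ± 0.339 TPM (SD, n = 2), from 75 and 52 expected counts. Hoxc8, between Hoxc6 and Hoxc9 on the chromosome, was not detected, with 5 and 9 expected counts at 0.15 and 0.30 TPM. It was the highest of the members that were not detected. On the 5' side of Hoxc9 the cluster had almost no reads: Hoxc10 had 1.03 and 0 expected counts, and Hoxc11, Hoxc12 and Hoxc13 had 0 in both libraries. Hoxc4, Hoxc5 and Hoxc6 together held 90.2% and 90.1% of the cluster's TPM. The order along the HoxC cluster from its 3' end was therefore an expressed block of Hoxc4 to Hoxc6, a low Hoxc8, an expressed Hoxc9 and a silent 5' end.

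In the HoxB cluster the pattern was the reverse, with reads at the outermost 5' gene. Hoxb13, known from the prostate and from growth of the tail and hindgut, and in the mouse heart as a cofactor of Meis1, had 8.38 and 8.73 TPM, or 8.56 ± 0.247 TPM (SD, n = 2), from 292 and 277 expected counts. It held 98.7% and 97.3% of the cluster's TPM and 27.3% and 31.9% of the TPM of all Hox genes. The other 9 HoxB genes together held 4 and 8 expected counts, and 5 of them had 0 in both libraries. Hoxb4, which expands mouse blood stem cells when overexpressed, had 1 and 4 expected counts, at 0.02 and 0.11 TPM. Hoxb3 had 3 and 0, Hoxb6 0 and 3, and Hoxb2 0 and 1 expected counts. Hoxb13 lies 74.0 kb from Hoxb9, the next Hox gene.

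**Figure D2:**
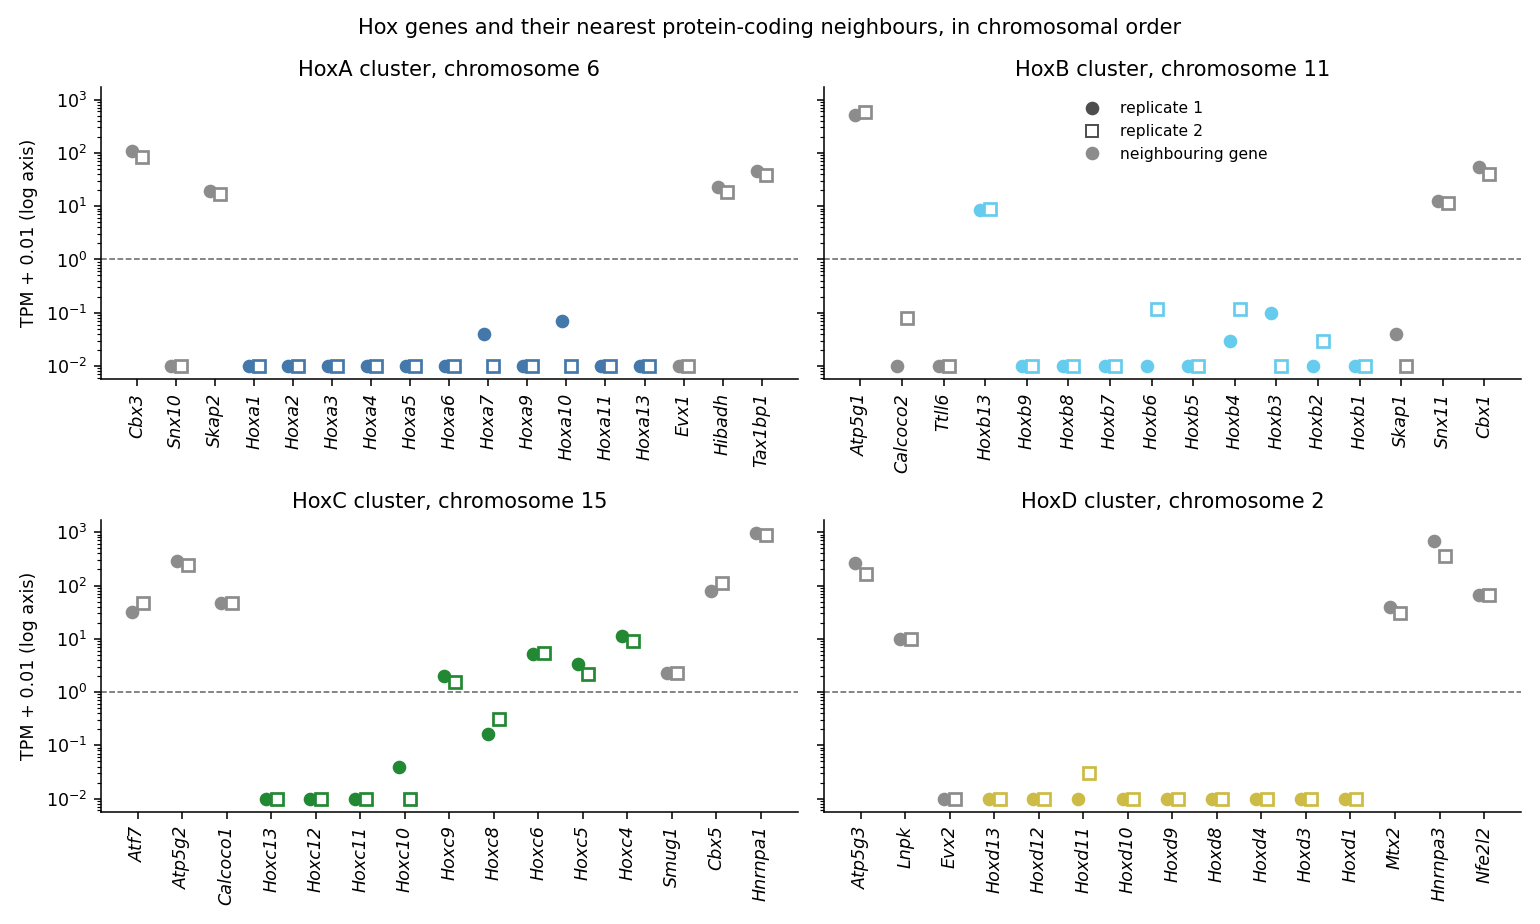
TPM + 0.01 (log axis) of the Hox genes of each cluster (coloured) and the 3 nearest protein-coding genes on either side (grey), in chromosomal order with the Hox genes placed by their 3' ends, in replicate 1 (circles) and replicate 2 (squares), with a dashed line at the detection limit. Hoxb13 and the genes Hoxc9, Hoxc6, Hoxc5 and Hoxc4 stand above the line while all HoxA and HoxD genes lie under it, as do their immediate neighbours Evx1 and Evx2, with expressed genes further out.

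The HoxA and HoxD clusters were close to silent. None of the 11 HoxA genes was detected, and the cluster held 2 expected counts in replicate 1, from Hoxa7 and Hoxa10 with 1 each, and 0 in replicate 2. Hoxa9, the Hox gene best known from mouse blood stem cells and myeloid leukaemia, had 0 in both libraries. At this depth up to 3 counts could have gone unseen, which for Hoxa9 is 0.128 TPM in replicate 1 and 0.14 TPM in replicate 2. None of the 9 HoxD genes was detected, and the only read was 1 expected count of Hoxd11 in replicate 2. Over all 28 members at 0, the limit set by 3 counts lay between 0.0691 and 0.258 TPM.

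By paralogue group, groups 4, 5, 6, 9 and 13 each had 1 detected member, and no group had more. A cluster has at most 1 gene per group, so of the detected Hox genes only Hoxb13 could have shared a group with another. In group 4 Hoxc4 reached 11.4 and 9.06 TPM, while Hoxa4 and Hoxd4 had 0 counts and Hoxb4 stayed at or below 0.11 TPM. In group 13 Hoxb13 reached 8.38 and 8.73 TPM, while Hoxa13, Hoxc13 and Hoxd13 had 0 counts. Groups 1 and 12 had 0 counts in every member.

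Neighbours in the order of level could not all be separated. Pbx2 exceeded Hoxc4 by 1.52 ± 0.29 on the log2 scale (SD, n = 2). Among Hoxc4, Pbx3 and Hoxb13, the order by TPM changed between the libraries. Pbx3 was the lowest of these genes in replicate 1 and the highest in replicate 2, while Hoxc4 stood above Hoxb13 in both. Expected counts put Hoxc4 above Hoxb13 in replicate 1 (357 against 292) but below it in replicate 2 (260 against 277). Hoxc4 against Pbx3 gave log2 ratios of 0.55 and -0.15, and Pbx3 against Hoxb13 gave -0.11 and 0.21. Hoxc4 against Hoxb13 gave 0.44 and 0.05, and its mean of 0.25 was below its SD of 0.27. Hoxb13 exceeded Hoxc6 by 0.70 ± 0.03, Hoxc6 exceeded Hoxc5 by 0.96 ± 0.45 and Hoxc5 exceeded Hoxc9 by 0.64 ± 0.16. By expected counts Hoxc6 did not lead in both libraries, with 95 and 99 against 114 and 92 for Hoxc5. The effective length that TPM divides by was 1129 and 1275 bases for Hoxc6 and 2108 and 2874 for Hoxc5. The coding transcripts Hoxc6-201 and Hoxc5-201 lay closer, at 2.80 and 3.57 TPM against 2.23 and 2.18 TPM. Hoxc9 and Meis1 differed by 0.20 ± 0.24, which is less than the spread between the libraries.

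Counting error can be set beside the difference between the libraries. The ratio of depth-corrected counts, replicate 1 over replicate 2, was 1.249 for Hoxc4 with an exact 95% Clopper-Pearson interval of 1.06 to 1.47, the only interval among the 8 that left out 1. It was 1.008 for Pbx2 (0.92 to 1.10), 0.959 for Hoxb13 (0.811 to 1.13) and 1.31 for Hoxc9 (0.909 to 1.91). The wide interval of Hoxc9 follows from its 75 and 52 counts. These intervals cover counting error only and treat reads as independent molecules. Reads copied by PCR are not independent, so the intervals can be too narrow.

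Many genes around the clusters were expressed. Of the 24 nearest protein-coding genes, 3 on either side of each cluster, 18 were detected, beside 41.2% of all protein-coding genes. HoxA lay between Skap2 at 18.3 ± 1.79 TPM and, beyond a silent Evx1, Hibadh at 20.8 ± 3.31 TPM (SD, n = 2). HoxC lay between Calcoco1 at 46.2 ± 0.141 TPM and Smug1 at 2.26 ± 0.0071 TPM (SD, n = 2), with Hnrnpa1, an RNA-binding protein gene, at 921 ± 58.1 TPM (SD, n = 2) close by. HoxD lay between Lnpk at 9.81 ± 0.099 TPM, beyond a silent Evx2, and Mtx2 at 35.1 ± 6.84 TPM (SD, n = 2). At HoxB the genes next to Hoxb13 and Hoxb1, Ttll6 and Skap1, had at most 1 expected count, and Atp5g1 at 547 ± 51.7 TPM and Snx11 at 12.03 ± 0.679 TPM (SD, n = 2) were the nearest detected genes.

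Inside the clusters, 45 other genes are annotated between the outermost Hox genes, and 37 of them had 0 counts in both libraries. The 3 detected ones lie in HoxB. The processed pseudogene Gm11539 had 11.7 and 14.6 TPM, from 97.6 and 112 expected counts, and since a processed pseudogene is a copy of another gene's transcript, its reads can match that gene too. The short RNA genes Gm27898 and Gm27605 lie near Hoxb13 on the opposite strand and had 6 and 5, and 7 and 9 expected counts. Whether counting used strand is not given in the sources used here. The long non-coding RNA gene Hotair, in HoxC, had 2.04 and 3 expected counts, and Hotairm1, in HoxA, had 0 and 1.

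The expressed members were divided unequally among their transcripts. Hoxb13 has only 1 listed transcript, a coding one, so its share was fixed in advance. Hoxc9 had all its reads on Hoxc9-201, 1 of its 2 listed transcripts, both coding. Hoxc4-201, the coding transcript that starts next to its coding exons, held 91.1% and 88.1% of the Hoxc4 TPM. Hoxc6-201, also coding, held 53.4% and 67.1% of the Hoxc6 TPM. The rest of Hoxc6 was assigned to 2 short transcripts without an annotated coding sequence.

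For Hoxc5 the division differed between the libraries. The coding transcript Hoxc5-201 held 66.2% of the TPM in replicate 1 and 99.4% in replicate 2, and the 615-base non-coding Hoxc5-202 held 33.8% and 0.62%. This rested on 10.6 and 0.12 expected counts, and by counts Hoxc5-201 held 90.7% and 99.9%. On Hoxc5-201 alone the libraries had 2.23 and 2.18 TPM, so the difference in the gene level, 3.37 against 2.19 TPM, lay in the short transcript.

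Pbx2 was spread over the coding transcripts Pbx2-201, with 47.8% and 41.7% of the TPM, and Pbx2-203, with 33.4% and 33.8%. A 659-base transcript with a retained intron, Pbx2-202, held 18.8% and 23.3%. For Pbx3 the leading transcript differed between the libraries: Pbx3-202 led in replicate 1 with 53.6% against 20.6% in replicate 2, and Pbx3-201 led in replicate 2 with 43.0% against 36.5% in replicate 1. Pbx3-207, annotated as a target of nonsense-mediated decay, held 4.27% and 31.9%. These transcripts share most exons, so reads of 36 bases assign them with an error that is unknown here.

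Meis1 had its largest share of TPM, 47.2% and 50.8%, on Meis1-207, a transcript annotated as a target of nonsense-mediated decay. The coding transcript Meis1-201 held 37.3% and 45.9%. By expected counts the order was turned, with 27.8% and 31.8% on the shorter Meis1-207 and 46.4% and 60.9% on Meis1-201. The counts behind this were 17.5 and 16.6 against 29.3 and 31.7.

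**Figure D3:**
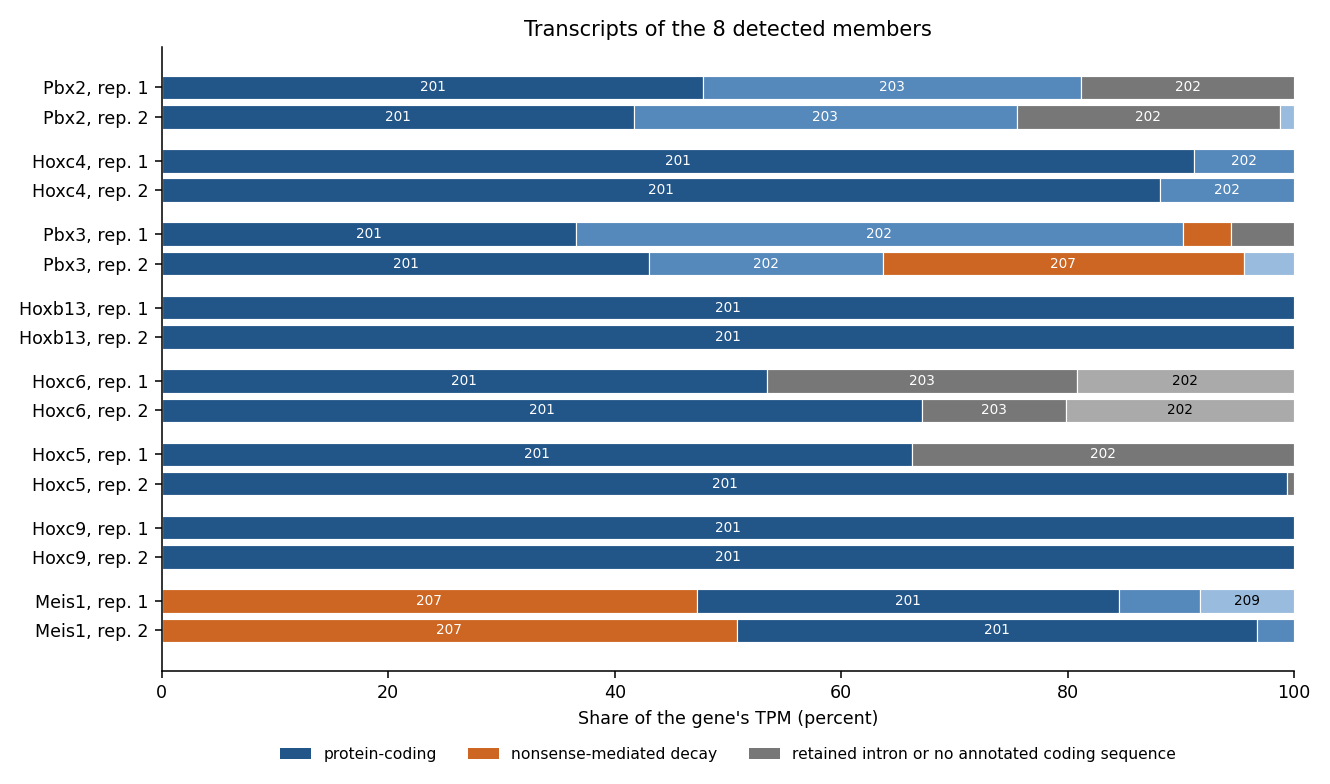
Share of each detected member's TPM (percent) held by each of its transcripts in replicate 1 and replicate 2, with protein-coding transcripts in blue, targets of nonsense-mediated decay in orange and the rest in grey, and with transcript numbers inside the larger bars. Hoxb13, which has only 1 listed transcript, and Hoxc9, which has 2, each show 1 transcript, while Pbx3 and Hoxc5 are divided differently in the libraries.

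Promoters were looked at because detected and undetected members can be set side by side there. RefSeq promoters on GRCm38.p6 were at hand for 27 members, 3 of them detected. Printed are the 250 bases before the RefSeq start used for those 3 genes, Pbx2 at chr17:34592009-34592258 on the plus strand, Hoxc4 at chr15:103034145-103034394 on the plus strand and Meis1 at chr11:19018970-19019219 on the minus strand. Hoxb4 at chr11:96318017-96318266 on the plus strand is added as a paralogue of Hoxc4 that was not detected. The Hoxc4 stretch precedes the transcript Hoxc4-201 and the RefSeq start of Pbx2 lies 4 bases before that of Pbx2-201, and both stretches lie inside the wider annotated genes, in which Hoxc4-202 and Pbx2-203 start further upstream. The Meis1 stretch precedes the coding transcript Meis1-209, which had only 6.84 and 0 expected counts, or 8.32% and 0% of the Meis1 TPM. The capitals mark CG pairs, the sites of DNA methylation.

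Pbx2: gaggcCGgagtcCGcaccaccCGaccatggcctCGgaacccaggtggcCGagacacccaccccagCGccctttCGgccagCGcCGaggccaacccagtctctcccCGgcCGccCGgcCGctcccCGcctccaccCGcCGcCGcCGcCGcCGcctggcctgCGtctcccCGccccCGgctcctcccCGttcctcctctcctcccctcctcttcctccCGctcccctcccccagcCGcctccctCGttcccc
Hoxc4: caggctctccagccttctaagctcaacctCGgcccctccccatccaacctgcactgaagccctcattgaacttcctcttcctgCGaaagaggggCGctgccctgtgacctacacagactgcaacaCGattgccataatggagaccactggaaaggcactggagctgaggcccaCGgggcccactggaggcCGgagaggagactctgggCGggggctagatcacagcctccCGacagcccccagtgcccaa
Meis1: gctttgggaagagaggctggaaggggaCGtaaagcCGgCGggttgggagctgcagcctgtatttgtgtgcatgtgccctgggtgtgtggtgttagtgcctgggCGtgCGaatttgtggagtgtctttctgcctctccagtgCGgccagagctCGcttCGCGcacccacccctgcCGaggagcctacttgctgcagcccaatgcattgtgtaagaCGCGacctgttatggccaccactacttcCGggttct
Hoxb4: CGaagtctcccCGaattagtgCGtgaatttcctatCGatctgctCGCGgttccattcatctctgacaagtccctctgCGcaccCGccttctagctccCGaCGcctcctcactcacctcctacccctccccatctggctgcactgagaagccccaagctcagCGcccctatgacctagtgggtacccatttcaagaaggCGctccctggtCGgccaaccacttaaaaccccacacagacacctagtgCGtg

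These stretches held 27 CG pairs in Pbx2, 8 in Hoxc4, 13 in Meis1 and 14 in Hoxb4, which was not detected. Over whole promoter windows of 300 bases, the 3 promoters of detected members had 9, 15 and 29 CG pairs, and the 26 promoters of members not detected had 4 to 45 with a median of 17, beside a median of 7 over all 32851 promoters. The GATA word AGATAA, on either strand, was in 0 of the 29 member promoters and in 11.2% of all promoters. The word TGACAG, a common core of MEIS sites, was in 2 of 29 and in 19.2% of all promoters. Of the other words searched, CCAAT was in 18 of 29 and in 37.4% of all promoters, and TATAAA in 5 of 29 and in 13.6%. A word in such a window is a description and shows no binding.

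Other genes of the pathway were read beside the members. The number detected in each list stands beside 41.2% of all protein-coding genes. Of 22 genes for activators of Hox loci, which include the MLL methyltransferases and their partner menin, 19 were detected. Mllt3 had 280 and 290 TPM, the methyltransferase gene Kmt2b 98.6 and 119 TPM, the H3K79 methyltransferase gene Dot1l 68.4 and 73.4 TPM and the MLL-complex gene Ash2l 64.2 and 66.4 TPM. The MLL1 gene Kmt2a had 26.6 and 29.5 TPM and the menin gene Men1 53.0 and 58.0 TPM. The 3 activators with 0 TPM in both libraries were Cdx1, Cdx2 and Cdx4, homeobox genes that switch on Hox genes in the embryo and, in fish and mouse, in early blood.

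Of 19 Polycomb genes, whose products keep Hox clusters silent, 15 were detected. The H3K27 methyltransferase gene Ezh2 had 150 and 133 TPM, and its complex partners Eed and Suz12 had 77.8 and 58.4 TPM and 46.5 and 30.1 TPM. Phc1 had 38.3 and 55.8 TPM. Cbx2, Cbx8 and Pcgf2 were not detected, at 0 to 0.08 TPM, and Cbx7 was detected at 17.3 and 18.8 TPM.

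Among the other TALE genes 2 of 11 were detected. Pknox1, whose product PREP1 pairs with PBX proteins in the way of MEIS, had 22.2 and 23.8 TPM, and the repressor gene Tgif2 had 21.1 and 25.5 TPM. Both stood above Meis1, at 1.55 and 1.49 TPM, in each library. All Irx genes stayed at or below 0.03 TPM.

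Of 50 other homeobox genes 15 were detected, led by Hhex, a blood and liver regulator, at 32.5 and 25.6 TPM. Hmbox1 followed at 28.4 and 27.8 TPM, the repressor gene Zeb2 at 23.8 and 23.0 TPM and the octamer factor gene Pou2f1 at 20.6 and 20.9 TPM. Pbx2 was at a like level to these.

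Of 8 genes linked to Hoxa9 and Meis1 in mouse leukaemia, 2 were detected, Msi2 at 14.4 and 15.2 TPM and the progenitor regulator gene Myb at 14.0 and 13.9 TPM. Flt3, Cd34, Hlf, Trib2 and Sox4 lay at or below 0.03 TPM, and Erg had 0.26 and 0.65 TPM. Some of these genes are also on the list of stem and progenitor markers.

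**Figure D4:**
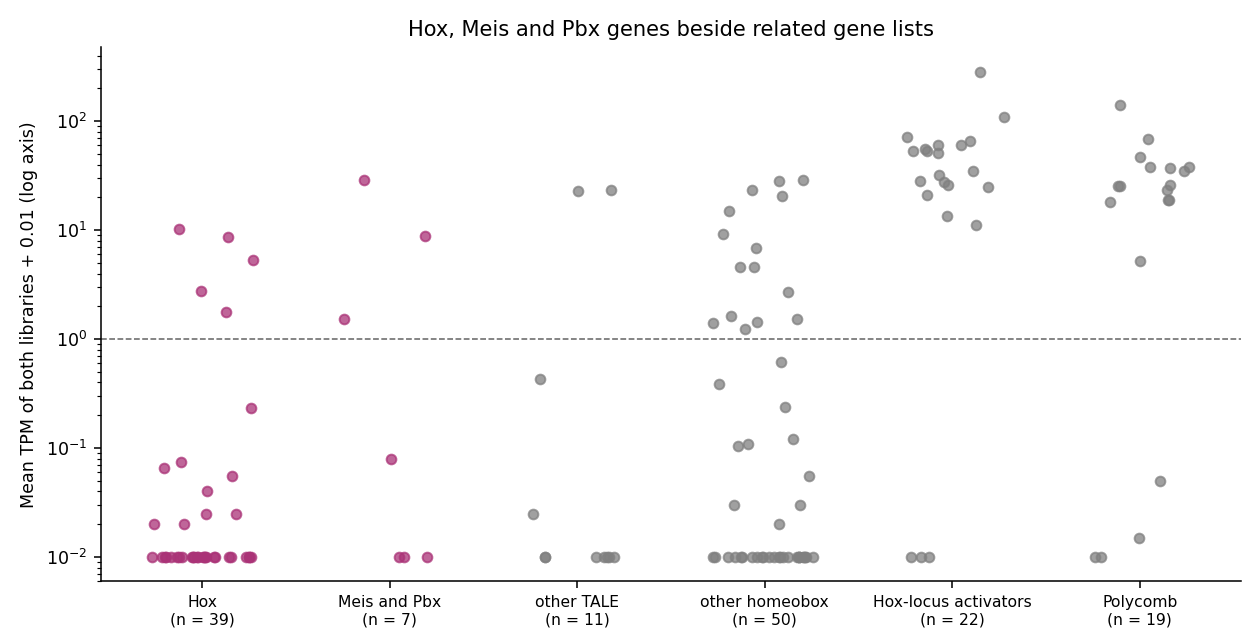
Mean TPM of both libraries + 0.01 (log axis) of each gene, for the Hox genes, the Meis and Pbx genes (both purple) and 4 related lists (grey), with a dashed line at the 1 TPM limit, which here applies to the mean. Points are spread sideways at random for visibility. Most Hox genes lie at the bottom, while 19 of 22 activator genes and 15 of 19 Polycomb genes lie above the line.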

How the data were processed

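Poly(A) RNA of 2 libraries was sequenced as single reads. Per the deposited file manifests, reads were placed on mm10 with the GENCODE M4 annotation. No source used here names the aligner or the quantifier. The deposited tables hold, per the file headers, expected counts, TPM and, for transcripts, the percent of the gene's TPM. The authors' posterior mean TPM column adds a prior and was used only as an alternative. Symbols and coordinates came from GENCODE M21 on the same assembly, to which 42462 of 43346 Ensembl identifiers matched. Rows that name no gene (26345) held 0.0119% and 0.011% of the counts. They were left out of the gene lists and the TMM scaling, but stayed in the depth and so in the depth-corrected counts.

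From these were computed levels, shares, log2 ratios and the interval of each count ratio (SciPy 1.17.1), and TMM-scaled values from rounded expected counts (edgeR 4.0.16, R 4.3.3), a step tested on simulated data. With 2 libraries an exact sign-flip test cannot go below p = 0.5, so none was run. The labels call the libraries biological replicates without naming separate cultures. Full values are given for members with 1 TPM or 10 counts in either library, and the 4 highest of each list. Members and lists were chosen with earlier results of these data known. The homeobox stretches and CG pairs were added after the files were seen, and planned comparisons of protein sequences were not run. Values and sequences of some genes are not reported here.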

Additional observations from a re-analysis of the deposited data

How the results depend on the processing

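The number of detected members was 8 at 0.5 TPM, at 10 expected counts and with TMM-scaled values, 6 at 2 TPM (without Hoxc9 and Meis1) and 9 by posterior mean TPM, which adds Meis2. Meis2 had no reads, and the prior places 1.60 and 1.74 TPM on its 19 transcripts. Posterior mean TPM also gave 71.4% for the share of Pbx2, 41.6% for the share of Meis1 among Meis genes, below Meis2 at 43.1% and above Meis3 at 15.3%, and 62.4% for the share of HoxC, 5.97% for HoxA and 2.67% for HoxD (0.146% and 0.037% by TPM), and sums of 32.3 TPM for Hox and 3.88 TPM for Meis genes. Sums in other units were, as CPM, 44.6 for Hox, 2.94 for Meis and 64.6 for Pbx genes, and, as TMM-scaled RPKM, 22.9, 1.20 and 29.9. Those units differ from TPM by construction. Without replicate 1 or without replicate 2 the number detected was 8, and the related lists had 54 genes detected at 0.5 TPM and 47 at 2 TPM, against 53. Of the other homeobox genes, 9 rather than 15 were detected at 2 TPM.

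No paired analysis was possible because the series has 1 group. For the 28 members with 0 counts, a count of 3 corresponds to at most 0.258 TPM, and the SDs rest on 2 libraries.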

Other observations

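The summed level of the 46 members was 68.3 TPM in replicate 1 and 68.9 TPM in replicate 2. The Pbx sum was 36.02 and 40.04 TPM, but 64.4 and 64.8 CPM when not divided by length; the effective length assigned to Pbx3 was 2478 bases in replicate 1 and 2004 in replicate 2. The Hox sum was 30.7 and 27.4 TPM, and 46.3 and 43.0 CPM. Without Hoxb13 the 38 other Hox genes held 22.3 and 18.6 TPM.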
